A study of Homo sapiens with 26 samples.

Results

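The transcripts described here are those with very long coding sequences (CDS), taken as every transcript whose highest codon number in the deposited codon files is 1500 or more. There were 456 of them among 12325 transcripts, which is 3.70%, and they held 15.9% of all codons. Their median length was 1947.5 codons against 388 codons for all transcripts. The rule uses length and no read value. Some coding sequences were present more than once, as copies of DLG5, LRP6, MARF1, MDC1, PRRC2A, SCRIB and TCF20, which left 440 distinct coding sequences. The 7 copies of TCF20 had 0 reads in every library. The authors kept only reads with up to 5 best sites, so a read that matched all 7 copies equally would not be kept. The 0 is therefore not read as absent translation. Gene names came from GENCODE v44 for 414 members and from a gene table of the study for 10, and 32 members stayed without a name and are given by transcript number. The shortest members had 1500 codons (ENST00000404338, RAPGEF2 and COL5A2) with means of 1190, 331 and 3676 reads per library, and 3 transcripts that were 1 codon shorter were left just outside (GOLGA3, ENST00000535325 and NCAPD3) with means of 486, 234 and 1334 reads.

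All groups are the single cell line Huh7, which derives from a human liver cancer of hepatocyte origin. Ribosome profiling (ribo-seq) sequences the mRNA pieces that ribosomes protect from nuclease, so each read, a footprint, gives the codon at which a ribosome stood. In study 1, cells received 1.5 μM PF-06446846, a small molecule whose effect on translation the study set out to map, 0.3 μM PF-06446846, or vehicle (DMSO) for 10 min or 60 min, with replicates 1 to 3 of each of the 6 groups. In study 2, cells received vehicle or 1.5 μM PF-06446846 during 60 min, and replicates 4 and 5 of each were profiled by ribo-seq and, from the same samples, by poly-A mRNA-seq. That makes 22 ribo-seq and 4 mRNA-seq libraries. The study calls the replicates of study 1 biological, and the labels do not say whether replicates came from separate cultures. Where they did not, the p-values measure only the spread between these libraries, which may be technical. The coding sequences of all transcripts together received 6414227 to 22224137 reads per ribo-seq library and 15227654 to 22036358 per mRNA-seq library, of which 299212 to 1226115 fell on members. Of 429 members with a mean of at least 100 reads per library, 419 were distinct. Liver markers were present (AFP, APOA1, APOA2, TTR, SERPINA1, FGB and HNF4A), ALB, PTPRC, CD3E, COL1A1 and COL3A1 had no transcript among those analysed, the endothelial marker PECAM1 was at 18.4 CPM (counts scaled to the CDS total of the library) and the glial marker GFAP at 0. No pair of replicates had identical counts.

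A ribosome that initiates on a long message has to stay on it through every codon, so the profile of footprints from the first to the last codon of a CDS shows how many ribosomes are in each stretch and how long they dwell there. Footprints are often dense near the start codon and thin out later, a pattern known as the ramp, and a long message gives it room to extend. Very long coding sequences encode scaffolds of the cytoskeleton, giant kinases of the DNA damage response, chromatin regulators, ubiquitin ligases and large secreted proteins, among them apolipoprotein B, the structural protein of the lipoproteins that hepatocytes release.

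In 4 members single codons held 10% or more of all vehicle footprints in both studies. The sequence around 2 of these codons, both in ZFHX3, is shown because they lie in the last of 5 equal segments of its CDS. Each window is 27 bases of GRCh38 with GENCODE v44 annotation, in coding exons, written 5′ to 3′ on the transcript strand, with the codon that holds the reads in capitals.
ZFHX3 codon 2607 of 2790, chr16:72787701-72787727, minus strand, exon 9: ggcggcggtggcGGCggcggcggcggc
ZFHX3 codon 2606 of 2790, chr16:72787704-72787730, minus strand, exon 9: ggcggcggcggtGGCggcggcggcggc
The windows of ZFHX3, a zinc finger homeobox transcription factor, are runs of glycine codons. ZFHX3 codon 2607 held 21.8% and 13.05% of the footprints in studies 1 and 2 and 10.8% of the mRNA reads, and codon 2606 held 18.6%, 17.8% and 22.1%. These are pooled shares, and in single vehicle libraries of study 1 they ranged from 3.93% to 28.99% for codon 2607 and from 0.515% to 28.9% for codon 2606. So the ZFHX3 peaks were present in mRNA-seq as well. Codon 1365 of 1911 in PTPRS, a receptor tyrosine phosphatase, held 16.2% and 14.2% of the footprints against 0.281% of the mRNA reads. Codon 1923 of 2028 in MED12, a Mediator subunit, held 10.5% and 16.3% against 3.08%. Over the 419 distinct members the median share of the highest codon was 0.923%, and in 16 of them it was 5% or more in study 1.

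The most densely occupied members were APOB, C3 and FN1, which hepatocytes secrete into plasma. Density is given as CPM per 1000 codons, in the 6 vehicle libraries of study 1. APOB led with 1280.4 ± 260 (SD, n = 6), from 1000.4 to 1643 in single libraries, and alone took 0.590% of all CDS footprints. Complement C3 followed with 1139 ± 125, and FN1, the matrix protein fibronectin, with 1088 ± 106. These ranges overlapped, so the first 3 are not separated beyond their spread. FASN, the fatty acid synthase, had 675 ± 141, CLTC, the clathrin heavy chain, 632 ± 68.2, and MYH9, a non-muscle myosin heavy chain, 489 ± 43.9. The remaining 14 of the 20 densest ran from 396 (TTBK2) to 173 (SMARCA4, a chromatin remodelling ATPase). They included TOP2A (topoisomerase), SNRNP200 (a spliceosomal helicase), LAMC1 and LAMB1 (laminin chains), NES (nestin), PRKDC (the DNA-PK catalytic subunit), EPRS1 (a tRNA synthetase), TLN1 and FLNA (talin and filamin, actin linkers), ARHGAP5 (a GTPase regulator), ENST00000614672 and ENST00000621442. TTBK2, a tubulin kinase named from the study table, was in this group through one stretch only. The second of 5 equal segments of its CDS held 98.9% of its footprints and 91.1% of its mRNA reads, so its density is that of a part of the CDS, and whether these reads belong to TTBK2 was not tested.

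Together the members took 4.24% to 5.87% of all CDS footprints in the 22 ribo-seq libraries and 5.56% to 6.30% of the mRNA reads in the 4 mRNA-seq libraries, well under their 15.9% of the codons. With vehicle, the share was 4.84% ± 0.446 (SD, n = 3) after 10 min and 4.76% ± 0.413 (n = 3) after 60 min in study 1. In study 2 it was 5.68% ± 0.201 (n = 2) for footprints and 5.68% ± 0.161 (n = 2) for mRNA, so the share of footprints was not below the share of mRNA reads there. Of the role groups, 18 extracellular and plasma proteins took 1.29% of all CDS footprints, 57 cytoskeleton and trafficking proteins 0.690%, 36 RNA processing and translation proteins 0.490% and 69 chromatin and transcription proteins 0.404%. The 13 mitosis and centrosome proteins took 0.118%.

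Footprints became sparser along the members, while mRNA reads became denser. Each CDS was divided into 5 segments of equal length. Its gradient is the log2 ratio of the reads in the last segment to those in the first, with 0.5 reads added to each, and it is negative where density falls from 5′ to 3′. Across the 429 members with enough reads, the median gradient with vehicle was −0.29 ± 0.036 (SD, n = 3 libraries) after 10 min, −0.09 ± 0.165 (n = 3) after 60 min and −0.14 ± 0.001 (n = 2) in study 2. For mRNA it was 0.25 ± 0.038 (n = 2). Over all 9074 transcripts with as many reads the same medians were 0.54, 0.53, 0.38 and 0.18, so footprints rose toward the 3′ end in the series as a whole and fell in the members. The paper reports a depletion of reads over the first codons of the CDS and a buildup at the stop codon. Without the first 50 and last 15 codons, the 10-min medians were −0.004 for all transcripts and −0.39 for the members. From 200 to below 500 codons, the first segment held a mean of 14.3% of the 10-min vehicle footprints, and 19.4% without these codons.

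The 10-min vehicle libraries had medians of −0.25, −0.32 and −0.30, and 303, 335 and 286 of the 429 members fell in them. The 60-min vehicle libraries had medians of −0.17, 0.10 and −0.20, with 254, 180 and 261 members falling. The second replicate after 60 min thus stood apart from the other two and on the other side of 0, and without it the mean of the 60-min vehicle medians was −0.18. Both study 2 vehicle libraries were at −0.14, with 272 and 268 members falling, and the mRNA libraries at 0.23 and 0.28, with 118 and 130 falling.

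**Figure D1:**
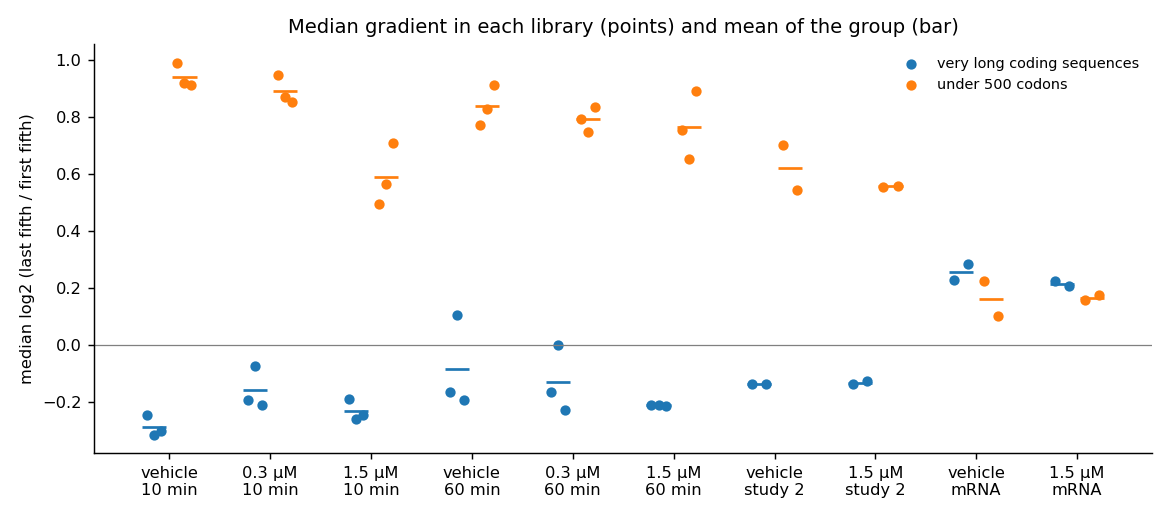
Median gradient (log2 of last over first segment, no unit) in each library for members (blue) and for transcripts under 500 codons (orange), by treatment group; points are libraries and bars are group means. The blue points lie at or below 0 in 21 of the 22 ribo-seq libraries, the exception being 0.10 in a 60-min vehicle library, and above 0 in the 4 mRNA-seq libraries.

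The fall was deeper in longer classes. With vehicle for 10 min the median gradient was 1.65 ± 0.075 under 200 codons, 0.75 ± 0.041 from 200 to below 500, 0.30 ± 0.022 from 500 to below 1000, 0.01 ± 0.029 from 1000 to below 1500, −0.23 ± 0.071 from 1500 to below 2000 and −0.38 ± 0.060 from 2000 codons (SD, n = 3). After 60 min and in study 2 the order was the same, from 1.31 and 1.09 in the shortest class to −0.16 and −0.17 in the longest. In mRNA-seq the medians lay between 0.12 ± 0.116 and 0.19 ± 0.019 in the 5 classes below 2000 codons and reached 0.35 ± 0.090 in the longest (n = 2). Short coding sequences consist largely of the codons next to the start and stop, so the gradient was also taken without the first 50 and last 15 codons. The shortest class then came to 0.14 ± 0.024 after 10 min, while the longest class came to −0.47 ± 0.066. After 60 min these trimmed medians were 0.06, 0.11, 0.08, −0.05, −0.12 and −0.22 ± 0.193 from the shortest class to the longest, so they were not in step and the longest was close to its SD. In study 2 they went from 0.06 ± 0.057 to −0.23 ± 0.012. Among members alone, length and gradient went together only weakly, with Spearman correlations of −0.19 after 10 min over 419 distinct members that share the same libraries.

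**Figure D2:**
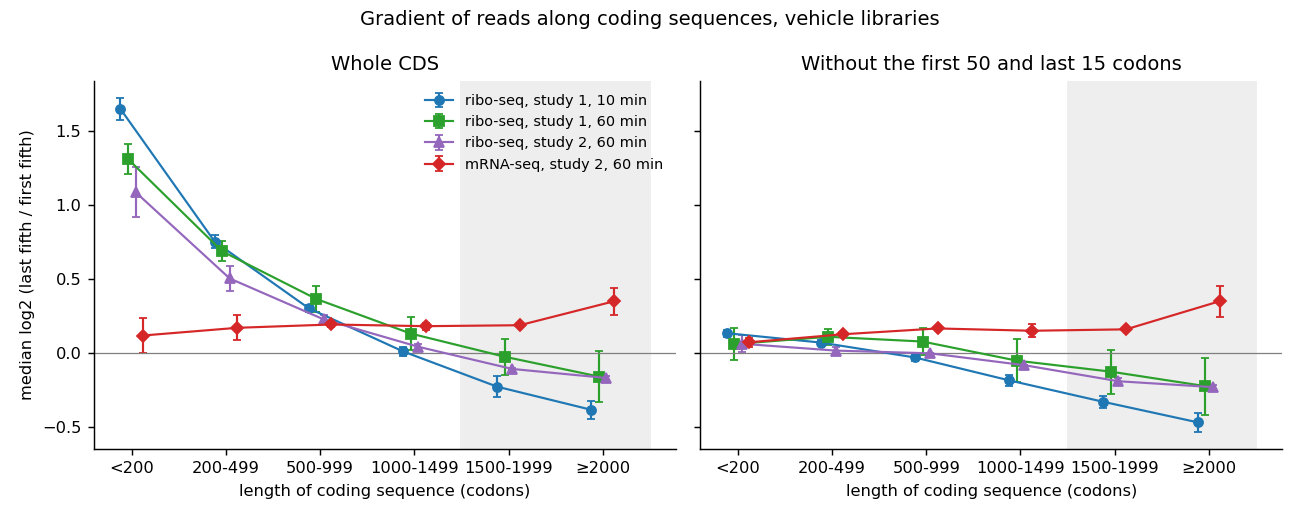
Median gradient (log2 of last over first segment) by length class in codons for the vehicle libraries, over the whole CDS (left) and without the first 50 and last 15 codons (right); points are means of the library medians, bars are 1 SD over 3 libraries (study 1) or 2 (study 2), and grey marks the members. Footprint gradients fall from 1.65 to −0.38 after 10 min with increasing length on the left, while mRNA lies between 0.12 and 0.35.

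Divided into 5 segments without the first 50 and last 15 codons, the mean member with vehicle for 10 min had 23.3% ± 0.44 of its footprints in the first segment, then 21.1%, 19.0% and 18.5%, and 18.2% ± 0.24 in the last (SD, n = 3). In study 2 the first and last segments held 21.9% ± 0.16 and 19.1% ± 0.04 of the footprints (n = 2), against 19.1% ± 0.02 and 22.4% ± 0.60 of the mRNA reads. Within the first 1500 codons, which every member has, windows of 100 codons placed the peak of footprints at codons 101 to 200, with 7.90% ± 0.243 of the reads of those 1500 codons after 10 min. From there the share fell to 6.17% ± 0.169 at codons 901 to 1000 and was 6.04% ± 0.111 at codons 1401 to 1500. The fall was therefore spread over about 1000 codons, and it flattened after that. The corresponding mRNA windows held 6.55% ± 0.054, 6.45% ± 0.047 and 6.998% ± 0.014.

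**Figure D3:**
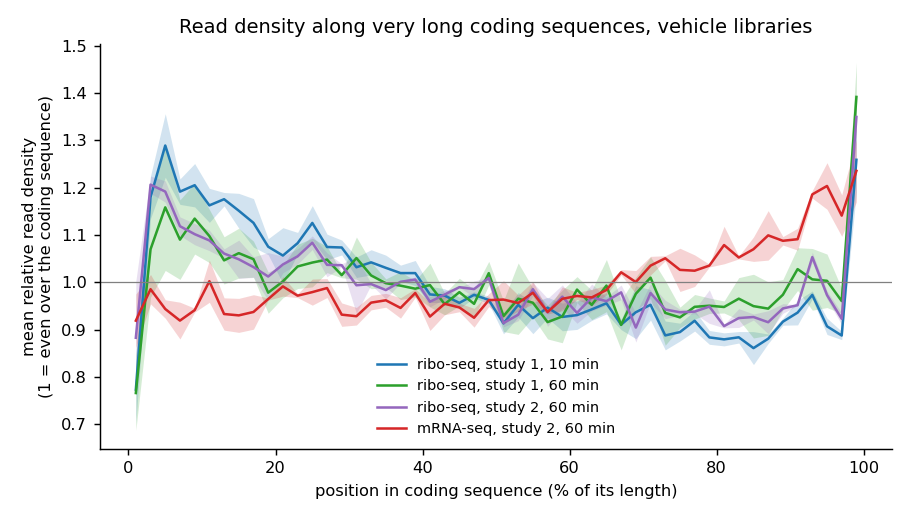
Mean relative read density over 50 equal bins of the CDS of members in vehicle libraries, where 1 is an even spread; lines are means over libraries and bands 1 SD. Apart from the first and last bins, which hold the start and stop codons, the 10-min footprint line stays above 1 up to bin 10 and below 1 from bin 41, the other footprint lines lie mostly above and mostly below 1 in these bins, and the mRNA line is above 1 from bin 41.

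Setting both assays of study 2 in a single fit tested each member's footprint gradient against its mRNA gradient with vehicle. A lower value can come from a fall of footprints, a rise of mRNA reads or both. The member medians were −0.14 for footprints and 0.25 for mRNA. The mRNA-seq was made from poly-A RNA, and the part of that selection in the mRNA gradient was not tested. Of 447 members tested, 70 had a lower gradient of footprints than of mRNA and 5 a higher one at an edgeR false discovery rate (FDR) of 0.1. Among all transcripts tested 15.3% were called, 3.51% lower and 11.8% higher, and 388 of the 1691 calls in the series were lower. The median difference was −0.41 in members and 0.22 in all transcripts, and with TMM on each segment −0.61 and 0.02. The contrast in direction depended on the ends of the CDS. Without the first 50 and last 15 codons the medians were −0.45 and −0.16, 185 of 619 calls in the series were higher, and 70 members were called as lower and 3 as higher. The next shorter class, from 1000 to below 1500 codons, also had mostly lower calls, with 46 lower and 8 higher of 816 over the whole CDS and a median of −0.13. Counted once for each set of copies there were 64 lower and 5 higher calls. With a single library of a kind left out the number of calls ranged widely: 26 without ribo-seq replicate 4, 29 without ribo-seq replicate 5 and 177 without mRNA-seq replicate 4, in place of 75. Among all transcripts these fits called 771, 1087 and 3983 in place of 1691. DESeq2 called 43 members among 972 transcripts.

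SPTAN1, the spectrin alpha chain of the membrane skeleton, had footprint gradients of −1.31 and −0.89 against mRNA gradients of 0.90 and 0.68. All footprint values were below both mRNA values, and the fitted difference was −1.90 ± 0.25 (SE, edgeR adjusted p = 0.000875).

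AHNAK, a giant scaffold protein and with 5891 codons the longest member, had footprint gradients of −0.39 and −0.53 and mRNA gradients of 0.83 and 0.87. Its first segment held 18.9% ± 0.42 of its footprints but 13.01% ± 0.73 of its mRNA reads, and its last segment 13.7% ± 0.64 against 23.4% ± 0.87 (SD, n = 2). The fitted difference was −1.31 ± 0.19 (adjusted p = 0.00128). MDN1, an ATPase of ribosome assembly with 5597 codons, also had a lower gradient of footprints (−1.05 ± 0.23, adjusted p = 0.0127), with 26.3% ± 0.82 of its footprints in the first segment. KMT2D, a histone methyltransferase with 5538 codons and the next in length, had nearly even profiles, with mean gradients of 0.04 for footprints and 0.08 for mRNA.

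CUL9, a cullin, had a difference of −1.99 ± 0.46 (adjusted p = 0.0169), and its call was lost without ribo-seq replicate 4 (adjusted p = 0.198). GON4L, a transcriptional regulator, was at −1.87 ± 0.37 (adjusted p = 0.00777), and its call was lost when the last 50% of the CDS was set against the first (−0.47, adjusted p = 0.129). By role group, with each repeated coding sequence counted once, and beside 64 lower calls among all members and 3.51% of all transcripts lower, 16 of 57 cytoskeleton and trafficking members were lower, 5 of 18 extracellular and plasma proteins, 5 of 22 ubiquitin ligases and proteases, 7 of 36 RNA processing and translation proteins, 4 of 21 PIKK kinases and genome maintenance proteins, 2 of 11 metabolic enzymes, 2 of 13 mitosis and centrosome proteins, 3 of 26 membrane receptors and adhesion proteins, 6 of 68 chromatin and transcription members, 0 of 49 GTPase regulators and signalling proteins and 14 of 116 members in no list. The 5 higher calls fell 1 each to RNA processing, membrane receptors, chromatin, GTPase regulators and the members in no list. The group medians of the difference ran from −0.56 in ubiquitin ligases and proteases to −0.18 in GTPase regulators, all below 0.

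Of the 5 members with the opposite sign, ZFHX3 (1.53 ± 0.25, adjusted p = 0.00257) is the one with the codon peaks shown above, which lie in the last segment. CELSR2, an atypical cadherin of planar cell polarity, had the largest value (2.06 ± 0.43, adjusted p = 0.00981). Leaving out codons over 20 times the mean density of their CDS, a step added after the data had been seen, brought CELSR2 to 0.11 (adjusted p = 0.948) and ZFHX3 to −0.47 (adjusted p = 0.467). RBBP6, a ubiquitin ligase that binds RB (1.44 ± 0.33, adjusted p = 0.0164), ARHGAP5 (0.89 ± 0.22, adjusted p = 0.0251) and SON, a splicing cofactor (0.72 ± 0.23, adjusted p = 0.0692), kept sign and call without such codons. With a library left out, RBBP6 lost its call without ribo-seq replicate 4 (adjusted p = 0.145), ARHGAP5 without either ribo-seq library (0.102 and 0.132) and SON without either ribo-seq library or mRNA-seq replicate 5 (0.321, 0.265 and 0.133). All 3 also lost their calls when the last 50% of the CDS was set against the first (0.138, 0.158 and 0.150), ARHGAP5 and SON without the first 50 and last 15 codons (0.187 and 0.118), and SON with TMM on each segment or in DESeq2 (0.148 and 0.152). For these 3 the mRNA itself thinned out toward the 3′ end. In RBBP6 the mRNA gradients were −1.06 and −1.12 and the footprint gradients 0.35 and 0.33, in ARHGAP5 −0.71 and −0.18 against 0.39 and 0.49, and in SON −0.84 and −1.41 against −0.41 and −0.40.

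Within study 1 the steepest falls after 60 min with vehicle included those of TTBK2 (−3.55 ± 1.16, SD, n = 3), FLNC, the muscle filamin (−2.20 ± 0.78), MROH1 (−2.04 ± 0.79) and MED1, a Mediator subunit (−1.63 ± 0.39). The steepest rises belonged to TRPM6, a magnesium channel (5.92 ± 0.73), CRYBG1 (5.75 ± 0.90), NAV2 (3.22 ± 0.54), MUC3A, a mucin (2.19 ± 1.48) and ARID1A, a SWI/SNF subunit (1.95 ± 0.10). Several of these extremes were also present in mRNA. The mRNA gradients of TTBK2, TRPM6, CRYBG1, MUC3A and NAV2 were −5.42, 7.12, 7.58, 2.37 and 1.91. CRYBG1 had 82.9% of its footprints in the last segment. MED1 had a mean mRNA gradient of 0.20, and its footprint gradients in study 2 were 0.13 and −0.28, so the fall seen in study 1 was not present there.

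Footprints per mRNA, the ratio of footprints to mRNA reads with vehicle in study 2 after TMM scaling of both assays together, ranged widely among members. Of 448 tested, 182 were above and 185 below the normalised centre at an edgeR FDR of 0.1, which is 81.9%, against 74.6% called among all transcripts (36.7% above, 37.9% below). The difference between these shares was not tested. With at least 100 reads in both assays, the median log2 ratio of 416 members was 0.07 ± 0.017 (SD, n = 2) against 0.18 ± 0.012 for all 8493 transcripts. Over all those tested the fitted medians had the other order, with −0.003 in 448 members and −0.03 in 11734 transcripts. With a library left out the fitted median ran from −0.08 to 0.06 in members and from −0.03 to −0.01 in all transcripts, so no order is read from it. The percentiles 5 and 95 of the members were −1.95 and 1.77 on the log2 scale.

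**Figure D4:**
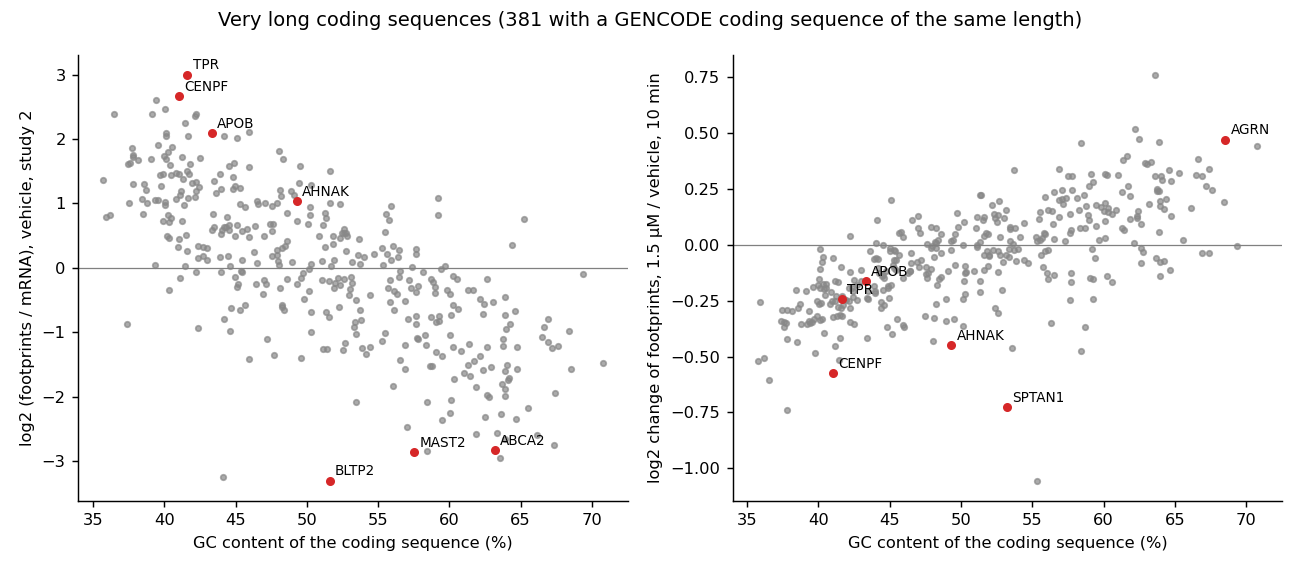
Each point is a distinct member with a GENCODE CDS of equal length, placed by the GC content of its CDS in percent, against log2 footprints per mRNA with vehicle (left) and the log2 change of footprints with 1.5 μM after 10 min (right); named members are red. The left cloud falls and the right cloud rises with GC content, with Spearman correlations of −0.75 and 0.73.

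The members with most footprints per mRNA were TPR, the nuclear pore basket protein, CENPF, a kinetochore protein of mitosis, TOP2A, complement C5 and THOC2, a subunit of the mRNA export complex THO. TPR had 3792 and 2124 footprints against 828 and 632 mRNA reads in replicates 4 and 5, which gave log2 ratios of 2.74 and 3.25 and a fitted value of 2.96 ± 0.20 (SE, edgeR adjusted p = 1.36e-06). CENPF was at 2.11 and 3.23, TOP2A at 2.31 and 2.92, C5 at 2.27 and 2.66 and THOC2 at 1.92 and 2.87. Replicate 5 was the higher in all 5 of them, and the CENPF mRNA level was 79.1 CPM in replicate 4 and 33.4 CPM in replicate 5. CLTC was at a fitted 2.39 ± 0.09 (adjusted p = 5.4e-08), with 18113 and 11010 footprints against 4943 and 6026 mRNA reads.

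The members with fewest were SBF1, a pseudophosphatase, BLTP2, a lipid transfer protein, MAST2, a kinase, ABCA2, a lipid transporter, and CEP170B, a centrosomal protein. SBF1 had 834 and 605 footprints against 15433 and 19423 mRNA reads, which gave log2 ratios of −3.66 and −3.50 and a fitted value of −3.59 ± 0.10 (adjusted p = 1.73e-08). BLTP2 followed at −3.40 and −3.21, MAST2 at −2.88 and −2.85, ABCA2 at −2.94 and −2.72 and CEP170B at −2.73 and −2.79. Among called members with fewer reads, ENST00000620799 (−3.42 ± 0.30), SHANK3, a synaptic scaffold (−3.34 ± 0.30), and USF3, a transcription factor (−3.27 ± 0.20), were as low.

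By role group, the median log2 footprints per mRNA was 0.97 ± 0.096 in 17 extracellular and plasma proteins, 0.91 ± 0.320 in 13 mitosis and centrosome proteins, 0.80 ± 0.529 in 21 PIKK kinases and genome maintenance proteins and 0.44 ± 0.010 in 36 RNA processing and translation proteins (SD, n = 2). It was −0.16 ± 0.018 in 64 chromatin and transcription proteins and −1.01 ± 0.035 in 22 membrane receptors and adhesion proteins. The other groups lay between, with 0.52 ± 0.028 in 10 metabolic enzymes and 0.34 ± 0.021 in 57 cytoskeleton and trafficking proteins. Ubiquitin ligases and proteases were at 0.15 ± 0.050 (21 proteins) and GTPase regulators and signalling proteins at −0.12 ± 0.070 (49 proteins). Of the extracellular group 11 of 18 tested were above the centre and 4 below it, and of the membrane receptors 5 of 26 were above and 18 below. Among all transcripts 36.7% were called above and 37.9% below. The median GC content of the CDS was 60.5% in membrane receptors, 51.6% in the extracellular group, 48.0% in mitosis and centrosome and 41.6% in PIKK kinases and genome maintenance.

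Over the 381 distinct members with a GENCODE CDS of equal length and enough reads, footprints per mRNA and GC content had a Spearman correlation of −0.75 and Pearson's r of −0.72, against −0.65 and −0.55 over 8054 transcripts. These points share their libraries, so the values are descriptions. The 30 members under 40% GC had a median log2 ratio of 1.34, of which 1 was below 0, and the 134 members of 55% GC or more had a median of −0.96, of which 115 were below 0. Over all transcripts, 35 of 438 and 2449 of 3226 were below 0 in these ranges, with medians of 1.29 and −0.55. Base composition can act on both assays before sequencing, and its part in footprints per mRNA was not tested. Length itself had a correlation of 0.04 among the members. The median GC content was 50.3% in members and 52.5% in all transcripts, and their untranslated regions were longer, with medians of 183 against 132 bases at the 5′ end and 1314 against 897.5 bases at the 3′ end. The class from 1000 to below 1500 codons was close to the members, with 50.7% GC and medians of 183 and 1419 bases.

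After 10 min with 1.5 μM PF-06446846, 2 of 448 members tested fell and 0 rose at an edgeR FDR of 0.1, against 0.851% called among all transcripts. In bulk libraries, fewer cells with a transcript and less of it per cell cannot be told apart. With no mRNA-seq after 10 min, fewer footprints per mRNA and less mRNA cannot be told apart either. BDP1, a subunit of the RNA polymerase III factor TFIIIB, had 12.9, 15.2 and 12.02 CPM with vehicle and 8.36, 7.56 and 8.36 CPM with 1.5 μM. All 3 treated values were below all 3 vehicle values, and the fitted log2 change was −0.73 ± 0.17 (SE, adjusted p = 0.0971). CENPF had 203, 252 and 171 CPM with vehicle and 133, 134 and 153 CPM with 1.5 μM, again without overlap, and a log2 change of −0.57 ± 0.13 (adjusted p = 0.0980). With 0.3 μM the BDP1 values were 16.1, 10.01 and 9.46 CPM and the CENPF values 239, 196 and 164 CPM, which overlapped vehicle. With 1.5 μM for 60 min both genes overlapped vehicle too, at 14.7, 7.53 and 9.03 CPM for BDP1 and 199.7, 129.9 and 131.5 CPM for CENPF.

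**Figure D5:**
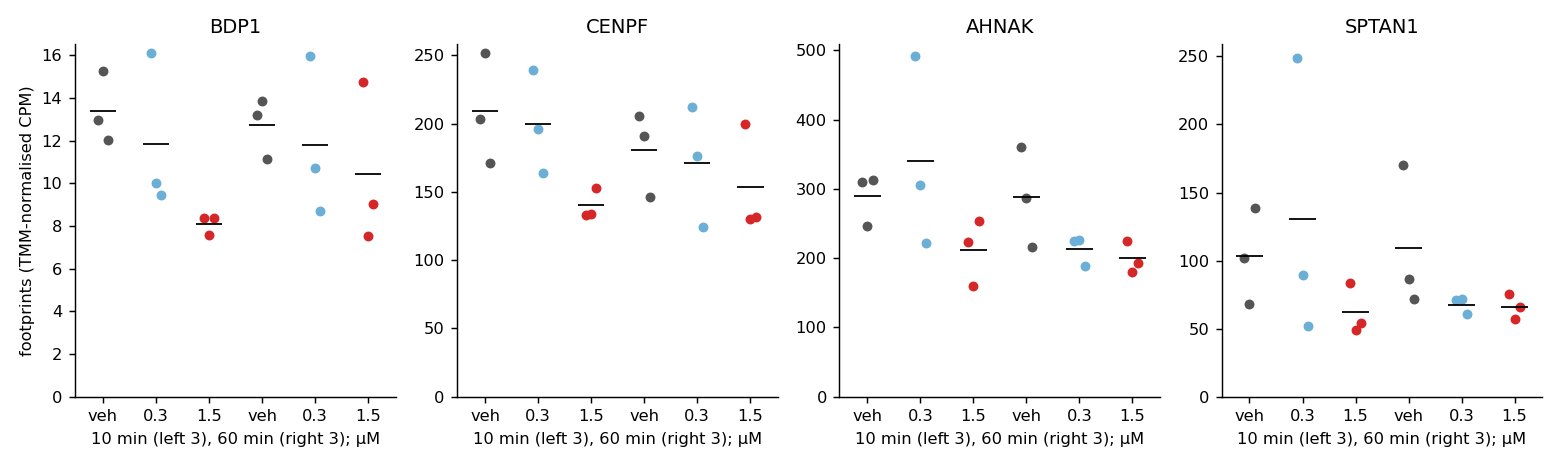
Footprint levels in TMM-normalised CPM of BDP1, CENPF, AHNAK and SPTAN1 in the 18 libraries of study 1, by dose and time (veh, vehicle; 0.3 and 1.5, μM PF-06446846); points are libraries, bars are group means and each axis starts at 0. For BDP1 and CENPF the 1.5 μM values after 10 min lie below the vehicle values, while after 60 min they overlap.

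Both calls were near the threshold, and each was lost in 5 of the 6 fits that left out a library, with adjusted p from 0.139 to 0.387 for BDP1 and from 0.131 to 0.400 for CENPF. The exception was vehicle replicate 3, without which 77 members were called, 14 higher and 63 lower, among 1654 transcripts, of which 875 were higher. Without 1.5 μM replicate 1, 2 or 3, 0 members were called, among 12, 12 and 60 transcripts. At an unadjusted p under 0.05, 92 of 448 members (20.5%) passed, 26 higher and 66 lower, against 17.7% of all transcripts, of which 985 were higher and 968 lower. DESeq2 called 19 members, 2 higher and 17 lower, among 519 transcripts, of which 278 were higher. The 2 that were higher were AGRN, the heparan sulfate proteoglycan agrin (0.47, adjusted p = 0.0426), and FLNC (0.52, adjusted p = 0.0740). Among the lower DESeq2 calls were CCDC88A (−0.74, adjusted p = 0.0235), GCC2 (−0.61, adjusted p = 0.0345) and GOLGB1 (−0.51, adjusted p = 0.0395), the last 2 coiled-coil proteins of the Golgi. These DESeq2 members were picked after their values were seen.

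The median change after 10 min was −0.05 in members and 0.01 in all transcripts. Without vehicle replicate 1 the member median was −0.003, and without vehicle replicate 3 it was −0.10. The change of a member went with its GC content, while its correlation with length was −0.07. The Spearman correlation of the change with GC content was 0.73 over 381 members and 0.68 over 8053 transcripts. All 30 members under 40% GC were below 0, with a median of −0.34, and 32 of the 134 members of 55% GC or more were below 0, with a median of 0.15. Over all transcripts, 429 of 438 and 573 of 3225 were below 0 in these ranges, with medians of −0.30 and 0.17. CCDC88A had 37.8% GC, GCC2 36.5%, CENPF 41.0% and AGRN 68.5%. By role group, the medians were −0.32 in 13 mitosis and centrosome members (10 below 0, of which CENPF was called), −0.15 in 21 PIKK kinases and genome maintenance members, −0.14 in 57 cytoskeleton and trafficking members and 0.29 in 26 membrane receptors and adhesion members (22 above 0, 0 called). After 60 min the correlation with GC was −0.21 among members, and the part of GC content in the 10-min change was not tested.

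After 60 min with 1.5 μM, 0 of 447 members passed in edgeR (0.0726% of all transcripts) or in DESeq2, and 10 had an unadjusted p under 0.05, all lower, which is 2.24% against 2.20% of all transcripts. AHNAK had the smallest p, with 361, 287 and 216 CPM with vehicle and 225, 180.5 and 193 CPM with 1.5 μM. The groups overlapped slightly, since the lowest vehicle value was below the highest treated one, and the log2 change was −0.53 ± 0.17 (edgeR adjusted p = 1.00). At this time same-numbered libraries deviated together, although the labels state no pairing. With the replicate number as a block in edgeR, AHNAK (−0.51, adjusted p = 0.0376) and SPTAN1 (−0.65, adjusted p = 0.0725) were called as lower. The blocked fit called 51 of 11021 transcripts, so these 2 of 447 members are at the share of the series. SPTAN1 had 170.0, 86.8 and 71.8 CPM with vehicle and 75.8, 57.0 and 65.7 CPM with 1.5 μM, lower in each of the 3 numbered pairs. In study 2 AHNAK did not follow, with 796 and 737 CPM with vehicle and 1203 and 710.2 CPM with 1.5 μM, and SPTAN1 had 116 and 111 CPM with vehicle and 112 and 106 CPM with 1.5 μM.

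The median change of members after 60 min was −0.08, against −0.002 in all transcripts, and 109 of 447 were above 0. The next shorter class, from 1000 to below 1500 codons, had −0.04, with 268 of 812 above 0. Without vehicle replicate 2, which stood apart in its gradient, the member median was −0.003. It was −0.05 without 1.5 μM replicate 3 and −0.14 without 1.5 μM replicate 1. The interaction of treatment and time was called in 0 of 448 members by edgeR (0% of all transcripts) and by DESeq2, with 14 at an unadjusted p under 0.05 (3.13% against 4.53% of all). MAST2 had the smallest of these p-values (−0.58 ± 0.17, edgeR adjusted p = 0.856).

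With 0.3 μM, which shares its vehicle libraries with 1.5 μM at each time, 0 of 448 members were called by edgeR (0% of all transcripts) or DESeq2 after 10 min, with 0 at an unadjusted p under 0.05 (0.934% of all). After 60 min 0 of 448 were called by either tool (0% of all transcripts), with 7 at an unadjusted p under 0.05 (1.56% against 0.871% of all). The smallest p belonged to ABCC3, an organic anion exporter, after 10 min (0.34 ± 0.16, edgeR adjusted p = 1.00) and to SHROOM2, an actin regulator, after 60 min (−0.70 ± 0.23, adjusted p = 1.00). The member median after 10 min was 0.05, with 0.005 without 0.3 μM replicate 1, 0.01 without vehicle replicate 3, and 0.09 without 0.3 μM replicate 3 or vehicle replicate 1. After 60 min it was −0.05, with 0.02 without vehicle replicate 2, −0.02 without 0.3 μM replicate 3, and −0.09 without vehicle replicate 3.

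In study 2, 0 of 448 members changed in footprints with 1.5 μM by edgeR (0.115% of all transcripts, 0.00888% higher) or DESeq2, with 11 at an unadjusted p under 0.05 (2.46% against 2.97% of all) and a median of 0.01, from −0.02 to 0.04 with a library left out. FAT1, an atypical cadherin, had the smallest p (−0.27 ± 0.08, edgeR adjusted p = 0.999). With the replicate number as a block FAT1 (−0.27, adjusted p = 0.00917) and USP9X (−0.24, adjusted p = 0.0205) were called as lower and AHNAK (0.28, adjusted p = 3.29e-09) and ZFHX3 (0.22, adjusted p = 6.33e-05) as higher, among 129 of 11263 transcripts, of which 50 were higher. The AHNAK pairs went opposite ways, from 796 to 1203 CPM in replicate 4 and from 737 to 710.2 CPM in replicate 5, so its call rests on 1 library. ZFHX3 went from 411 to 545 CPM and from 539 to 548 CPM, while FAT1 and USP9X were lower in both pairs. Without 1.5 μM replicate 5, 6 members were called as higher, among 61 transcripts, led by AHNAK (0.65, adjusted p = 2.46e-11), whose level of 1203 CPM in 1.5 μM replicate 4 stood above its other 3 values. In mRNA, 0 of 448 members changed in edgeR (0% of all transcripts) or DESeq2, with 14 at an unadjusted p under 0.05, all higher (3.13% against 1.93% of all). BAZ2A, a chromatin protein of ribosomal DNA silencing, had the smallest p (0.23 ± 0.09, adjusted p = 0.999). The median mRNA change was 0.09 in members, of which 362 of 448 were above 0, against −0.001 in all transcripts, and the next shorter class, from 1000 to below 1500 codons, had 0.06. Without mRNA-seq vehicle replicate 5 the member median was 0.06.

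The change in footprints per mRNA with 1.5 μM was called in 0 of 448 members by edgeR (0.0339% of all transcripts) and by DESeq2, with 8 at an unadjusted p under 0.05 (1.79% against 3.03% of all). ANKRD11, a chromatin regulator, had the smallest p (−0.34 ± 0.12, edgeR adjusted p = 1.00). The member median was −0.09, with 112 of 448 above 0, against −0.01 in all transcripts and 0.03 under 500 codons. Without mRNA-seq vehicle replicate 4, 15 members were called, all lower, among 128 transcripts, of which 21 were higher. The member median was −0.05 without ribo-seq vehicle replicate 4 and −0.14 without ribo-seq vehicle replicate 5. The next shorter class had a median of −0.06.

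The compound left few members with a called change of gradient. After 10 min with 1.5 μM, 3 of 437 members had a higher gradient than with vehicle and 0 a lower one, against 11.8% called among all transcripts, 0.607% higher and 11.1% lower. From 1000 to below 1500 codons, 7 of 786 were called as higher and 17 as lower, with a median change of −0.03. The median change was 0.07 in members, −0.23 in all transcripts and −0.38 under 500 codons, and 965 of the 1102 lower calls in the series had fewer than 500 codons. This contrast too depended on the ends of the CDS, since without the first 50 and last 15 codons the medians were 0.12 in members and −0.02 in all transcripts, and 173 of 460 calls in the series were higher in place of 60 of 1162. With TMM on each segment, which sets the change relative to the bulk of transcripts, the member median was 0.30, with 360 of 437 above 0, all transcripts were at 0.004, and 17 members were called among 661 transcripts. The member median gradient was −0.23 ± 0.037 with 1.5 μM (n = 3) beside −0.29 ± 0.036 with vehicle. TPR had gradients of 0.11, −0.33 and 0.25 with vehicle and 0.95, 0.82 and 0.98 with 1.5 μM, without overlap, and a fitted change of 0.91 ± 0.20 (SE, edgeR adjusted p = 0.0124). After 60 min its vehicle values were 1.11, 1.09 and 1.03 and its treated values 0.27, 1.30 and 0.79, so the rise was not seen there.

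KMT2B, a histone methyltransferase, went from −1.29, −0.56 and −0.44 to 0.63, 0.49 and −0.33 (change 1.04 ± 0.35, adjusted p = 0.0919), and DNMT1, the maintenance DNA methyltransferase, from −0.25, −0.69 and 0.60 to 0.60, 0.95 and 0.50 (0.82 ± 0.27, adjusted p = 0.0830). The DNMT1 groups overlapped, and the calls of KMT2B and DNMT1 were lost in DESeq2 (adjusted p = 0.231 and 0.133) while TPR was called there. Both were also lost with the replicate number as a block (0.118 and 0.105), KMT2B without the first 50 and last 15 codons (0.133), both without 1.5 μM replicate 1 or 2 or vehicle replicate 1, and DNMT1 without vehicle replicate 2 (adjusted p from 0.177 to 0.328), while TPR was called with any library left out. Comparing the last 50% of the CDS with the first, all 3 calls were lost (TPR 0.35, adjusted p = 0.116). CDC42BPA (0.76), SPEN (0.48) and MCM3AP (0.52) were called as higher there and TOP2A (−0.37) as lower, with adjusted p from 0.0796 to 0.0974, among 872 transcripts, of which 114 were higher. Leaving out a library gave 1 to 7 calls, with 7 without vehicle replicate 3, 5 without 1.5 μM replicate 3 and 1 without 1.5 μM replicate 2 or vehicle replicate 1, among 1311, 1126, 452 and 615 transcripts.

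After 60 min 0 of 437 members changed in gradient by edgeR (0.162% of all transcripts) or DESeq2, with 11 at an unadjusted p under 0.05, all lower (2.52% against 4.14% of all). SLIT2, an axon guidance ligand, had the smallest p (−1.53 ± 0.54, edgeR adjusted p = 1.00). In study 2 it was 0 of 442 in edgeR (0.416% of all transcripts) and in DESeq2, with 22 at an unadjusted p under 0.05 (4.98% against 5.26% of all), led by CHD3, a nucleosome remodeller (1.04 ± 0.33, adjusted p = 0.288). The member medians were −0.16 after 60 min and −0.01 in study 2, against −0.08 and −0.05 in all transcripts. Without vehicle replicate 2 the 60-min values were −0.06 in members and −0.06 in all transcripts, and without 1.5 μM replicate 5 the study 2 values were −0.04 and −0.06.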

How the data were processed

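The authors deposited, for each of 26 libraries, a count of reads at each codon, unnormalised. Per the paper's methods and the submitters' processing notes (Bowtie 1.1.2, kallisto 0.42.5, DESeq, GRCh38), they aligned reads free of adapters and rRNA to 1 isoform of each expressed gene, kept reads with up to 5 best sites, and placed the P-site 14 nt into the read, so paralogs and repeats can share reads.

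Counts were summed per CDS and per segment (1 of 5 equal lengths) and tested with edgeR 4.0.16 (filterByExpr, TMM, quasi-likelihood test, Benjamini-Hochberg FDR of 0.1) in R 4.3.3, over all transcripts and with the libraries of the compared groups alone. Gradients were tested as an interaction of segment with treatment or assay within each library, and footprints per mRNA as an interaction or difference of assay. CPM values used TMM within each study and assay, except for the ratios of footprints per mRNA, where TMM was taken over both assays of study 2 together. Summaries used scipy 1.17.1, pandas 2.3.3 and numpy 2.4.6 under Python 3.11.15. Copies were transcripts of equal length whose reads along the CDS correlated above 0.98, or which all had 0 reads. GC content came from GENCODE v44 where the CDS length was equal (395 members). The steps were tested on simulated data, in which the test of footprint against mRNA gradients missed most changed transcripts with 2 libraries a group.

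Named members are the 20 densest, the 3 longest, the 5 steepest rises and falls after 60 min with vehicle, the 5 highest and lowest in footprints per mRNA with at least 100 reads, and for each test all calls up to 10, otherwise the 5 extremes each way with at least 50 reads, or the smallest p. Some items that meet this rule are not reported here. The members, lists and rule were chosen with earlier results of these data known.

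Over 10161 transcripts, same-numbered libraries deviated together after 60 min (1.5 μM with vehicle, correlations of 0.514, 0.386 and 0.508) but not for every pair with 1.5 μM after 10 min (0.184, 0.227 and 0.067). In study 2 the number marks one sample in both assays. Alternatives were DESeq2 1.42.0, its size factors, no low-count filter, an FDR of 0.05, a replicate block, other codons, a pseudocount of 1, other read minimums, 2000 codons, and each library left out. Those added after seeing the data were 1 transcript per set of copies and segments without codons over 20 times the mean density.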

Additional observations from a re-analysis of the deposited data

Results flagged for a closer look

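Of 59 named members, 5 had lower footprints with 1.5 μM than with vehicle in all 3 numbered pairs of study 1 after 60 min and higher footprints in both pairs of study 2 at the same time, and the difference between the studies was not tested. The mean log2 ratios of 1.5 μM to vehicle were −0.19 ± 0.14 (SD, 3 pairs) in study 1 and 0.21 ± 0.21 (SD, 2 pairs) in study 2 for CEP170B. They were −0.26 ± 0.12 and 0.084 ± 0.11 for KMT2B, −0.18 ± 0.06 and 0.071 ± 0.02 for MYH9, −0.32 ± 0.06 and 0.090 ± 0.08 for NES, and −0.38 ± 0.37 and 0.22 ± 0.27 for ZFHX3. The 2 ZFHX3 codons shown above held a variable part of its footprints in study 1 after 60 min. Codon 2607 held 12.6% ± 10.7 with vehicle and 5.65% ± 5.04 with 1.5 μM (SD, n = 3). Codon 2606 held 9.56% ± 12.8 and 3.94% ± 4.69. The ZFHX3 change without these codons was not tested. In each of the 5 the smallest pair was under 0.1 in size, so the opposite directions rest on small ratios. The median change over all members was −0.08 in study 1 after 60 min and 0.01 in study 2, so the 5 moved in the directions of these medians. Without vehicle replicate 2 the study 1 median was −0.003. How many of all members or transcripts moved this way was not counted.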

How the results depend on the processing

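Of 241 summary values recomputed under an alternative, 193 were counted as kept. For counts of calls this means an equal count or one within 1.5 times, whatever the direction and whichever members were called. Of 400 values of named members 349 kept their direction and side of the threshold, 47 lost a call, 3 gained one and 1 reversed. That one was ZFHX3 in the gradient of footprints against mRNA, at −0.47 without codons over 20 times the mean density.

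Members called with 1.5 μM after 10 min (2) became 0 at an FDR of 0.05, 5 without the first 50 and last 15 codons, 19 with DESeq2 and 49 with a replicate block (among 300, 519 and 1196 transcripts in these last 3 fits), where the shared numbers alone do not pair the libraries, and 0 to 77 with a library left out. The replicate block gave 2 members of 51 transcripts after 60 min, 4 of 129 in study 2 footprints (FAT1, AHNAK, ZFHX3 and USP9X), and 1 gradient call of 985 after 10 min; in the other comparisons, blocked counts stayed within 1.5 times. Leaving out a library gave 0 to 6 in study 2 footprints and 0 to 15 in the change of footprints per mRNA. With 2000 codons as the minimum, 170 of the 367 called in footprints per mRNA were left, since fewer members were counted.

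Gradient calls after 10 min (3) became 1 at an FDR of 0.05, 17 with TMM on each segment, 5 without dense codons and 1 with DESeq2 (among 661, 1189 and 652 transcripts in these last 3 fits, against 1162), and 1 to 7 with a library left out. Comparing the last 50% of the CDS with the first gave 4 calls after 10 min, none of them among the 3, and 1 call in study 2 (CHD3). The 75 calls against mRNA became 127 with TMM on each segment, 4 higher and 123 lower, where the series had 1737 calls, 1041 of them higher, in place of 1691 with 1303 higher. They became 43 with DESeq2 and 26 to 177 with a library left out.

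The median vehicle gradient after 10 min was −0.39 without the first 50 and last 15 codons and −0.38 from 2000 codons. That of study 2 was −0.20 and −0.17 with the same changes, −0.15 as a slope over 5 segments, −0.13 with at least 50 reads, −0.11 with at least 500, and −0.13 with 1 transcript per set of copies. The mRNA gradient was 0.35 from 2000 codons. Median footprints per mRNA were 0.022 with at least 50 reads and 0.11 from 2000 codons. Without the first 50 and last 15 codons the shares of reads on members were 5.90%, 5.85%, 6.98% and 6.94% (vehicle after 10 min, after 60 min, study 2 footprints and mRNA), and from 2000 codons 2.89%, 2.85%, 3.35% and 3.22%. Where the cause of a change is not named here, it was not tested. With 2 or 3 libraries a group, 1 library decided several counts, and a library left out of study 2 leaves a lone one assumed to vary like the others.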
